A study of Mus musculus with 4 samples.

Results

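Keratin-associated proteins, encoded in the mouse by the Krtap genes, are small proteins of the hair shaft. They fill the space between the hair keratin filaments and are cross-linked to them through disulfide bonds of their many cysteines. The genes fall into numbered subfamilies, which lie in clusters in the genome and are grouped by composition as high sulfur, ultrahigh sulfur or high glycine-tyrosine. In normal hair follicles they are switched on late, in cells of the shaft cortex and cuticle that already make hair keratins, whereas embryonic skin at the stage studied here is forming its first follicle buds.

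The Krtap genes were followed through every probe set of the array whose platform symbol begins with Krtap. Probe sets that the platform assigns to several genes were left out, and no filter on signal was applied, so that genes dim in both groups were kept. This gave 43 probe sets of 38 genes, out of 45037 probe sets that are not array controls. A further 6 Krtap probe sets were dropped because they match several genes, and 18 of the 56 Krtap genes in the reference gene table had no probe set of their own by this rule. The members belong to 22 subfamilies, of which subfamily 19 has 7 probe sets, subfamily 5 has 6, subfamily 4 has 5 and subfamily 6 has 4.

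RNA came from whole skin, epidermis together with dermis, of 4 mouse embryos at E14.5, with 1 embryo per Affymetrix MOE430 2.0 array. The 2 mutant embryos carried KRT14-Cre and Ctnnb1(Ex3)fl/+, and the other 2 embryos were control littermates whose own genotype the labels do not give. KRT14-Cre drives recombination from a keratinocyte promoter, and it removes from 1 Ctnnb1 allele the exon whose residues mark beta-catenin for degradation, so that epithelial cells make a stabilised form of this effector of Wnt signalling. Dermal cells are not the target of this Cre, and the RNA of both compartments was measured as a mixture. The comparison asks which transcripts differ in embryonic skin when beta-catenin is stabilised in the epithelium.

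The authors deposited 1 MAS5 signal intensity per probe set and array, with array medians between 27.7 and 32.0 and array means between 219 and 227. Keratinocyte markers (Krt5, Krt14, Trp63 and Cdh1) and fibroblast markers (Col1a1, Col3a1, Pdgfra and Dcn) lay above the array median on every array. The summed keratinocyte signal was 5540 and 7835 in controls and 2949 and 4326 in mutants, and its 4 genes were not called (adjusted p 0.061 to 0.23). Summed fibroblast signal was 18276 to 20824 in controls and 16050 to 18123 in mutants, and summed endothelial signal was 940 to 1079 over all arrays. Cartilage markers stood apart on 1 array, with sums of 202 and 167 in controls, 9716 in mutant replicate 1 and 395 in mutant replicate 2. Summed melanocyte signal was 352 and 374 in controls and 714 and 1163 in mutants, and summed skeletal muscle signal was 1752 and 1650 in controls and 927 and 475 in mutants. Of all these markers 1, the muscle gene Actn3, passed the test. Actn3 was higher in mutants (log2 fold change 1.55), while the muscle genes Myh3, Tnnt3 and Ckm were lower in them and not called. The part of cell mixture in the results below was not tested.

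Most Krtap probe sets were close to the bottom of the scale in control skin and far above it in mutant skin. In controls 40 of 43 lay under 27.7, the lowest array median, on both arrays, and 20 lay under 7.71 on both arrays, the 25th percentile of all values. In mutants 23 lay above 32.0, the highest array median, on both arrays. Both mutant signals exceeded both control signals for 34 probe sets, the groups overlapped for 9, and no probe set had both mutants under both controls. Over all probe sets of the array, 24.1% had both mutants above and 22.5% both below.

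Tested with limma on log2(signal + 7.71) across all 45037 probe sets, with Benjamini-Hochberg adjustment and a threshold of 0.05, 23 Krtap probe sets of 22 genes were higher in mutant skin. The share of all probe sets called higher was 1.24%, and it was 0.89% among the 23146 probe sets whose mean control signal was at most 32.2, the highest mean of a member. No Krtap probe set was called lower by limma, and none was lower at an unadjusted p under 0.05, where 30 were higher. The background for lower calls was 0.717%. The median log2 fold change of the 43 members was 3.04, with a range from -0.44 to 7.61, beside a median of 0.01 over all probe sets. For each of the 23 called members the lower mutant signal was at least 7.59 times the higher control signal. Among the 10 probe sets of the array with the largest log2 fold change 5 were Krtap members, and among the top 50 there were 17. In whole skin, more cells of a type and more RNA per cell cannot be told apart. These values therefore do not say how many cells carried the transcripts.

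Genes of a Krtap subfamily resemble each other closely, so a probe set may also detect relatives of the gene it is named for. The 4 probe sets whose suffix marks shared or cross-matching probes belong to Krtap11-1, Krtap16-3, Krtap5-1 and Krtap12-1, and 2 of them were called.

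The count of 23 depended on single arrays. It fell to 13 when control replicate 2 was left out, to 15 when mutant replicate 1 was, and to 18 when control replicate 1 was, and it stayed at 23 when mutant replicate 2 was. All 23 kept a positive fold change in each of these fits, and 12 were called in each of the 14 alternative settings. Because the control signals were so low, the size of a fold change depended on the offset added before the logarithm, and the median of the members was 4.48 with an offset of 1 and 0.72 with an offset of 100.

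**Figure D1:**
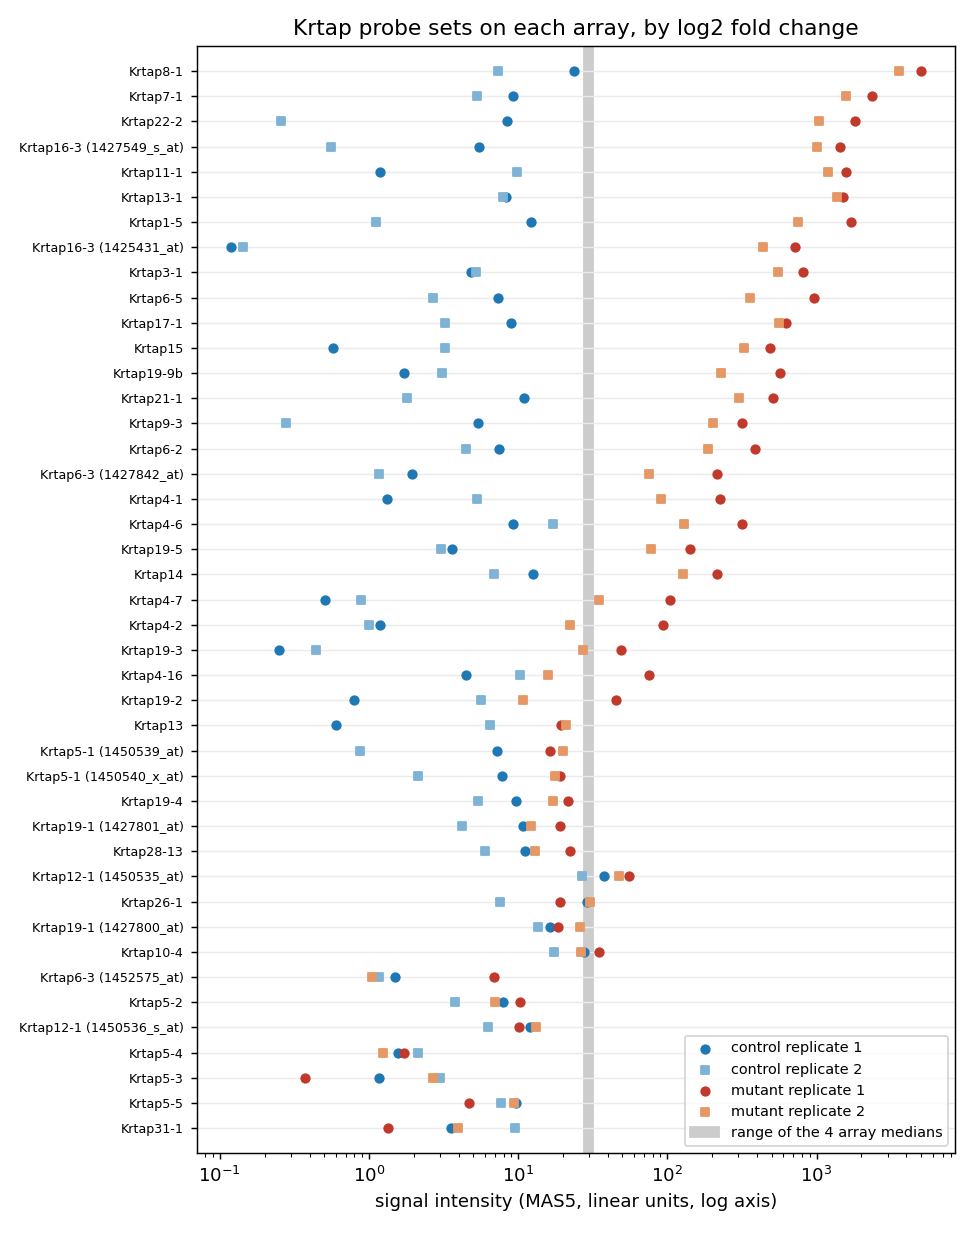
Signal intensity of each of the 43 Krtap probe sets on the 4 arrays, on a log axis, with 1 point per embryo, probe sets ordered by log2 fold change and the grey band marking the range of array medians (27.7 to 32.0). In the upper rows the mutant points lie well to the right of the control points, while in the lowest rows the groups mix.

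The high glycine-tyrosine proteins, the class that is rich in glycine and tyrosine and abundant in the hair cortex, are represented here by subfamilies 6, 7, 8, 16, 19, 21 and 22. Of their 17 probe sets 12 were higher in mutants, and the median log2 fold change was 4.35, and 6 were called without control replicate 2. Krtap8-1 read 23.6 and 7.33 in controls and 5017 and 3546 in mutants, a log2 change of 7.61 (SE 0.35, with an adjusted p = 0.00078). Krtap7-1 read 9.30 and 5.28 in controls and 2347 and 1588 in mutants, a log2 change of 7.03 (SE 0.23, with an adjusted p = 0.00033). Both genes, each the single measured member of its subfamily, were thus under the array median on both control arrays and far above it on both mutant arrays. Krtap22-2 went from 8.37 and 0.257 to 1804 and 1036, a log2 change of 6.93 (SE 0.39, with an adjusted p = 0.0017). Krtap16-3 has 2 probe sets, which read 5.46 and 0.558 against 1439 and 1002, and 0.119 and 0.144 against 713 and 439. Their log2 fold changes were 6.86 and 6.18 (SE 0.28 and 0.27), and both were called. Krtap21-1 read 10.99 and 1.79 in controls and 510 and 304 in mutants, a log2 change of 4.92 (SE 0.39, with an adjusted p = 0.0052). Its call was lost without mutant replicate 1, with an adjusted p of 0.051.

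Subfamilies 6 and 19 were mixed. In subfamily 6, Krtap6-5 read 7.35 and 2.71 in controls and 957 and 360 in mutants, and Krtap6-2 read 7.42 and 4.501 against 387 and 188. Their log2 fold changes were 5.57 and 4.35 (SE 0.45 and 0.36), and both calls were lost without control replicate 2, at adjusted p of 0.0665 and 0.0632. Krtap6-3 is the one gene whose probe sets differed in their call. Its first probe set read 1.93 and 1.17 in controls and 214 and 75.8 in mutants, with a log2 change of 3.88 (SE 0.47, with an adjusted p = 0.018). Its second probe set read 1.49 and 1.16 against 6.92 and 1.05, with overlapping groups and a log2 fold change of 0.33 (adjusted p = 0.64). The 2 probe sets of Krtap6-3 therefore gave no single answer for that gene, and the call of the first was lost without any of control replicate 1, control replicate 2 or mutant replicate 1 (adjusted p 0.084, 0.13 and 0.053).

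All 7 probe sets of subfamily 19 had both mutants above both controls, and 3 of them passed the test. Krtap19-9b read 1.71 and 3.10 in controls and 571 and 228 in mutants, a log2 change of 5.20 (SE 0.42, with an adjusted p = 0.0054), lost without control replicate 2 (adjusted p = 0.062). Krtap19-5 and Krtap19-3 had log2 fold changes of 3.35 and 2.47 (adjusted p 0.0099 and 0.022). Krtap19-5 was not called when control replicate 2 (adjusted p 0.081) or mutant replicate 1 (0.067) was left out, and Krtap19-3 was not called in any of the 4 fits that left out 1 array (adjusted p 0.051 to 0.14). The other members of the subfamily were dim on every array, except for Krtap19-2 on mutant replicate 1. Krtap19-2 read 0.792 and 5.62 against 45.0 and 10.7, a log2 fold change of 1.55 that did not pass (adjusted p = 0.23). At the low end, 1 of the 2 probe sets of Krtap19-1 read 16.3 and 13.5 in controls and 18.5 and 25.97 in mutants, a log2 fold change of 0.39 (adjusted p = 0.57). The 6 genes of this 1 subfamily thus ran from a large rise to values that nearly met between the groups.

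The high sulfur proteins, which carry more cysteine than the keratins themselves, were counted here from subfamilies 1, 3, 11, 13, 14 and 15. They had 6 of 7 probe sets higher and a median log2 fold change of 5.73. The subfamilies left without a class, described below and all uncalled, are not in this count. The share therefore depends on how subfamilies were classed. Krtap11-1 read 1.20 and 9.83 in controls and 1572 and 1186 in mutants, a log2 change of 6.78 (SE 0.33, with an adjusted p = 0.0010). Krtap13-1 read 8.34 and 7.98 against 1513 and 1382, a log2 fold change of 6.52 with the smallest SE of the called members, 0.13 (adjusted p = 0.00011). The mutant replicates of Krtap13-1 lay closest together among the called members on the log2 scale, and the other measured gene of the subfamily was not called. That gene, Krtap13, read 0.604 and 6.44 in controls and 19.2 and 20.8 in mutants, a log2 fold change of 1.35 that did not pass (adjusted p = 0.11). Krtap1-5 read 12.2 and 1.11 in controls and 1705 and 752 in mutants, a log2 change of 6.43 (SE 0.49, with an adjusted p = 0.0047). Krtap3-1 read 4.86 and 5.19 against 813 and 552, a log2 fold change of 5.73 (SE 0.22), and Krtap15 read 0.577 and 3.24 against 491 and 326, a log2 fold change of 5.42 (SE 0.28). Krtap14 was the called member of the class with the smallest change. It read 12.7 and 6.86 in controls and 217 and 128 in mutants, a log2 change of 3.34 (SE 0.32, with an adjusted p = 0.0086), and its call was lost when control replicate 2 (adjusted p 0.069) or mutant replicate 1 (0.080) was left out.

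The ultrahigh sulfur proteins, the most cysteine-rich class, had 5 of 13 probe sets higher, a median log2 fold change of 1.58, and 2 calls left without any of control replicate 1, control replicate 2 or mutant replicate 1. They differed by subfamily. Krtap17-1 and Krtap9-3, the single measured members of subfamilies 17 and 9, rose. Krtap17-1 read 8.97 and 3.25 in controls and 624 and 559 in mutants, a log2 change of 5.47 (SE 0.24, with an adjusted p = 0.00071). Krtap9-3 read 5.42 and 0.279 against 317 and 202, a log2 change of 4.67 (SE 0.34, with an adjusted p = 0.0041). In subfamily 4 all 5 probe sets had both mutants above both controls and 3 passed the test, Krtap4-1, Krtap4-6 and Krtap4-7, with log2 fold changes of 3.80, 3.37 and 3.04. Krtap4-1 read 1.33 and 5.28 in controls and 224 and 90.03 in mutants (SE 0.45, adjusted p = 0.017). These 3 calls were each lost without control replicate 1, control replicate 2 or mutant replicate 1, with adjusted p between 0.071 and 0.19. Krtap4-2 read 1.19 and 1.01 against 92.9 and 22.4, a log2 fold change of 2.65 (SE 0.56) that missed the threshold (adjusted p = 0.085) and passed it without mutant replicate 2 (adjusted p = 0.041). Krtap4-16 had the smallest change of the subfamily, from 4.51 and 10.3 to 75.8 and 15.8, a log2 change of 1.58 (SE 0.60, with an adjusted p = 0.28). The mutant replicates of subfamily 4 lay far apart, with replicate 1 above replicate 2 in all 5 probe sets.

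Subfamily 5, known in humans from the hair cuticle, had none of its 6 probe sets called, with a median log2 fold change of 0.11, and limma gave an unadjusted p under 0.05 for 2 of them. Those 2 are the probe sets of Krtap5-1. The first read 7.22 and 0.871 in controls and 16.3 and 19.9 in mutants, a log2 change of 1.19 (SE 0.34, with an adjusted p = 0.16), and the second had a log2 fold change of 1.08 (adjusted p = 0.17). At the other end Krtap5-5 read 9.64 and 7.68 in controls and 4.70 and 9.33 in mutants, a log2 fold change of -0.17 (adjusted p = 0.83). No signal of subfamily 5 exceeded 19.9, so that all lay under the median of every array, and at this signal a difference may not have been detectable.

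The remaining subfamilies, 10, 12, 26, 28 and 31, were left without a class, so the class counts above leave them out. None of their 6 probe sets was called or had an unadjusted p under 0.05 in limma. Krtap12-1 and Krtap10-4 belong to subfamilies that are also known from the human hair cuticle. Members were not sorted by cuticle and cortex here, and S100a3, a cuticle gene described below, was called higher in mutants. The first probe set of Krtap12-1 read 37.8 and 26.7 in controls and 55.6 and 47.3 in mutants, a log2 fold change of 0.58 (adjusted p = 0.33), and the second read 11.98 and 6.33 against 10.1 and 13.2, a log2 fold change of 0.21. Krtap10-4 read 27.8 and 17.4 in controls and 35.1 and 26.2 in mutants, a log2 fold change of 0.35 (adjusted p = 0.64). The mutants lay above both controls in the first probe set of Krtap12-1, and the groups overlapped in its second probe set and in Krtap10-4. Krtap26-1 read 28.8 and 7.53 against 18.998 and 30.2, a log2 fold change of 0.43, and Krtap28-13 read 11.2 and 6.02 against 22.2 and 13.02, a log2 fold change of 0.63. Krtap31-1 had the lowest log2 fold change of all members, -0.44 (SE 0.29, adjusted p = 0.53), with 3.57 and 9.56 in controls and 1.34 and 3.95 in mutants and overlapping groups.

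**Figure D2:**
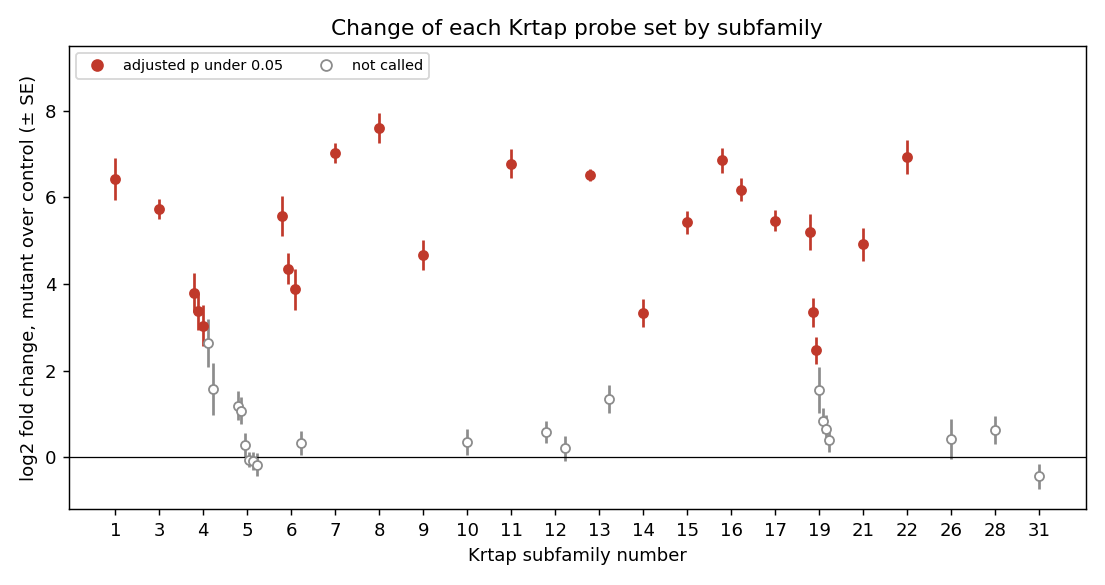
Log2 fold change of mutant over control (± SE from limma, n = 2 per group) for each Krtap probe set, by subfamily number, with filled points for adjusted p under 0.05. Subfamilies 7, 8, 11, 16 and 22 lie near 7, subfamilies 4 and 19 spread from below 2 upwards, and subfamily 5 lies between -0.17 and 1.19.

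Arranged by genomic position in the GRCm38.p6 gene table, the called members lay in the clusters of chromosomes 11 and 16. On chromosome 16, 16 of 23 probe sets were higher, with a median log2 fold change of 4.35, and on chromosome 11 it was 7 of 10, with a median of 3.58. None of the 10 probe sets of the 8 genes on chromosomes 1, 7 and 10 was called by limma, 2 of them had an unadjusted p under 0.05, and their median log2 fold change was 0.32. The count on chromosome 16 was 9 without control replicate 2, the count on chromosome 11 was 4 without any of control replicate 1, control replicate 2 or mutant replicate 1, and with arrays scaled by their poly-A spike controls 7 of the 10 probe sets on the other chromosomes were called. The difference between the clusters was not tested. Within the chromosome 16 cluster each gene from Krtap19-5 to Krtap11-1, 11 measured genes in a row, had a called probe set. Among the 9 measured genes before them, Krtap13-1, Krtap14, Krtap15 and Krtap19-3 were called, and Krtap26-1, Krtap13, Krtap19-1, Krtap19-2 and Krtap19-4 between or beside them were not. On chromosome 11 the uncalled Krtap4-2 lay between called genes, and the uncalled Krtap4-16 and Krtap31-1 lay next to each other in the order of measured genes, between Krtap4-6 and Krtap17-1, which were called.

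**Figure D3:**
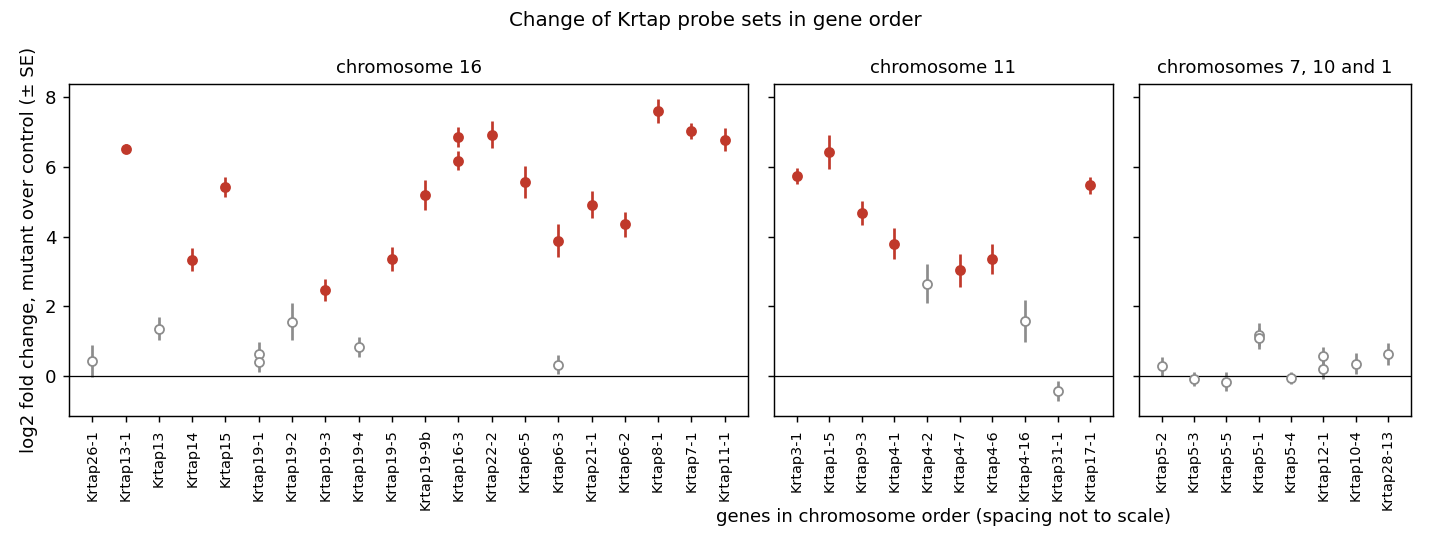
Log2 fold change (± SE from limma, n = 2 per group) of Krtap probe sets with genes in chromosome order and spacing not to scale, filled where the adjusted p was under 0.05. Called probe sets number 16 on chromosome 16, 7 on chromosome 11 and 0 on chromosomes 7, 10 and 1.

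The promoters of the Krtap genes shared a sequence feature that the choice of members did not use. RefSeq windows of GRCm38.p6 from 250 bases before to 50 bases after the annotated start were found for 36 of the 38 genes. Because genes of a Krtap subfamily resemble each other closely, these windows may not be independent of each other. The part of this resemblance in the shares below was not tested. The TATA box core TATAAA, searched on both strands, occurred in 29 of these 36 windows, or 80.6%, beside 13.6% of all 32851 promoters. On the gene's own strand, starting 40 to 20 bases before the start, where a TATA box usually lies, it occurred in 21 of 36, or 58.3%, beside 1.99% of all promoters. It was found at that place in 14 of the 21 promoters of genes called higher and in 7 of the 15 of genes not called. The 100 bases before the start are shown for 6 genes that rose and 4 that were not called, on the strand of the gene, with each TATAAA in capitals.
Krtap8-1 (chr16:89487953-89488052, minus strand): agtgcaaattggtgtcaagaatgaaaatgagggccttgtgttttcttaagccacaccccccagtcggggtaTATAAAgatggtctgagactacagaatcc
Krtap22-2 (chr16:89010760-89010859, minus strand): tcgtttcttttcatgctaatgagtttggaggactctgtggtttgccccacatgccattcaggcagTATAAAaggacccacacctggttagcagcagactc
Krtap16-3 (chr16:88962874-88962973, minus strand): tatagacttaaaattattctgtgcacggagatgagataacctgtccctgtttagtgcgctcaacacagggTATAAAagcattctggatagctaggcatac
Krtap13-1 (chr16:88728762-88728861, plus strand): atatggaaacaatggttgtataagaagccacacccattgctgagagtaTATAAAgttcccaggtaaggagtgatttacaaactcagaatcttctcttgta
Krtap1-5 (chr11:99581017-99581116, minus strand): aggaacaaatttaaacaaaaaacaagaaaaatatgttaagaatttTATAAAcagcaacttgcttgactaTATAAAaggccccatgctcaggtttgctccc
Krtap17-1 (chr11:99993995-99994094, minus strand): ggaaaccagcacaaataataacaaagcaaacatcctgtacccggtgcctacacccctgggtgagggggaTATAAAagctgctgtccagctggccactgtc
Krtap31-1 (chr11:99907820-99907919, plus strand): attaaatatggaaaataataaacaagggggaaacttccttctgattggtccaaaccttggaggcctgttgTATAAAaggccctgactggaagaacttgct
Krtap26-1 (chr16:88647797-88647896, minus strand): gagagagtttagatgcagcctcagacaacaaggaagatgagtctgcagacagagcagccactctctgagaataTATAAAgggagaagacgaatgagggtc
Krtap5-1 (chr7:142297135-142297234, minus strand): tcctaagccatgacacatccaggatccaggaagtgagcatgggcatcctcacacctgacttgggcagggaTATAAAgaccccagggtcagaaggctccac
Krtap5-3 (chr7:142201264-142201363, plus strand): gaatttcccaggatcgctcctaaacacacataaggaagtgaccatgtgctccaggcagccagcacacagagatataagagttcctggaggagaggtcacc
In these windows the nearest TATAAA began 29 bases before the start in Krtap8-1, 35 in Krtap22-2, 30 in Krtap16-3, 52 in Krtap13-1 and 31 in both Krtap1-5 and Krtap17-1. The uncalled genes Krtap31-1, Krtap26-1 and Krtap5-1 carried it at 30, 27 and 30 bases, and the Krtap5-3 window held no exact match. The TATA core was thus present in genes that rose and in genes that did not.

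A word bound by TCF/LEF factors, the DNA-binding partners of beta-catenin, was searched as CTTTGAA or CTTTGAT on both strands of the same windows. It occurred in 8 of 36 Krtap promoters, or 22.2%, beside 8.65% of all promoters. Of the promoters of called genes 7 of 21 held it, and of those not called 1 of 15, the promoter of Krtap4-2. The matches with their surroundings, on the strand of the gene and with the matched word in capitals, were as follows.
Krtap1-5 (chr11:99581230-99581266, minus strand): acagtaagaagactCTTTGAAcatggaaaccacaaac
Krtap11-1 (chr16:89571402-89571433, minus strand): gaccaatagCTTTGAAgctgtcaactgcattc
Krtap14 (chr16:88826330-88826368, minus strand): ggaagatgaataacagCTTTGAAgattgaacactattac
Krtap15 (chr16:88828804-88828842, plus strand): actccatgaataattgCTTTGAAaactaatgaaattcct
Krtap15 (chr16:88828857-88828895, plus strand): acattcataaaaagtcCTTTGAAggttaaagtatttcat
Krtap16-3 (chr16:88963097-88963123, minus strand): tggcCTTTGAAgagggtgaaatcgttt
Krtap19-3 (chr16:88878257-88878288, minus strand): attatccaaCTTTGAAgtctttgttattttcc
Krtap19-3 (chr16:88878199-88878237, minus strand): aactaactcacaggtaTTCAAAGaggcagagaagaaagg
Krtap19-9b (chr16:88932308-88932346, minus strand): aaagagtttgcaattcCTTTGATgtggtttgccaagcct
Krtap4-2 (chr11:99635261-99635299, minus strand): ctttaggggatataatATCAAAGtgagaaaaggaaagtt
The words of Krtap15 and Krtap19-3 are shown 2 times because each of these promoters holds 2 matches. Most matches lay far from the start, beginning between 136 and 246 bases before it, and the one of Krtap19-9b lay closest, 66 bases before it. The promoters of most called genes held no match in this window. The word TTTAT, the core bound by HOX proteins of the Hoxc13 type, occurred in 31 of 36 promoters beside 40.01% of all, but the other strand of each TATAAA reads TTTATA and so holds this word too. Outside TTTATA the word occurred in 16 of 36, or 44.4%, beside 33.5% of all promoters. A match of letters is a description of the window and does not show binding. Windows of related genes may also hold the same word because the genes resemble each other, which was not tested.

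The mutant arrays differed from each other in a regular way. In each of the 23 called Krtap probe sets mutant replicate 1 was higher than mutant replicate 2, by 0.13 to 1.41 on the log2 scale with a median of 0.73. Among the 534 other probe sets called higher it was 246, or 46.1%, with a median difference of -0.02, and over all probe sets it was 51.3%. The difference was smallest in Krtap13-1 and Krtap17-1 and largest in Krtap6-3, Krtap6-5 and Krtap4-7. Among 12 hair keratins, replicate 1 was the higher in 7, with a median log2 difference of 0.32 over the 12. These 7 were Krt31, Krt33a, Krt33b, Krt34, Krt81, Krt83 and Krt86, with log2 differences of 0.28 to 0.90. Krt32, Krt35, Krt36, Krt82 and Krt84 went the other way, with log2 differences of -0.02 to -1.05. The 8 cartilage markers were higher in replicate 1 too, 8 of 8 with a median log2 difference of 4.13. Of the skeletal muscle markers 3 of 4 were higher in replicate 1 (median 1.27), and of the fibroblast markers 3 of 4 (median 0.16). The 4 keratinocyte markers were lower in replicate 1, 4 of 4 with a median log2 difference of -0.55. Of the melanocyte markers 0 of 3 were higher in replicate 1 (median -0.73), and of the endothelial markers 1 of 3 (median -0.03). The part of these differences between the embryos in the Krtap values was not tested.

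**Figure D4:**
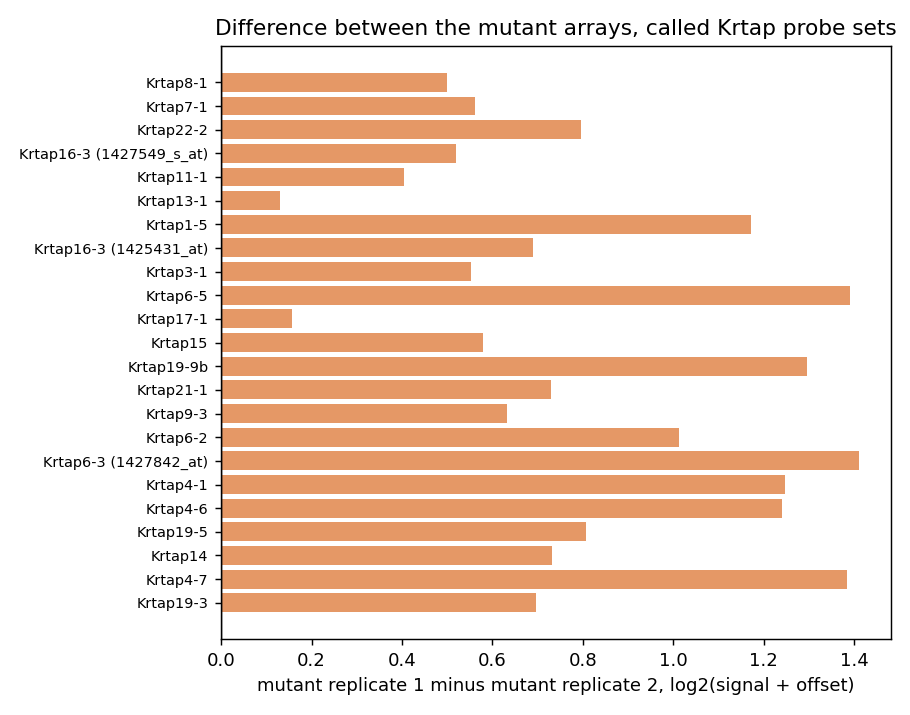
Difference between mutant replicate 1 and mutant replicate 2 in log2(signal + 7.71) for each of the 23 called Krtap probe sets, 1 bar per probe set. All bars are above 0, from 0.13 for Krtap13-1 to 1.41 for Krtap6-3.

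The hair keratins, the filament proteins that keratin-associated proteins embed, rose as a group. Of 16 listed genes 12 were measured and all 12 were higher in mutants, with a median log2 fold change of 5.48. Krt33a, Krt33b, Krt35 and Krt34, acidic keratins of the hair shaft, had log2 fold changes of 7.95, 7.08, 6.78 and 6.57. Krt84 was not called in any fit that left out an array (adjusted p 0.076 to 0.18), and those of Krt36 and Krt32 were lost without mutant replicate 1 or without mutant replicate 2 (adjusted p 0.051 to 0.11). Of the 12 measured proteins in a list of other shaft and sheath components, 5 were higher, with a median log2 fold change of 0.53, and 3 were higher without mutant replicate 1. S100a3, a calcium-binding protein of the hair cuticle, had a log2 fold change of 5.88, and Tchh, the trichohyalin of the inner root sheath and medulla, had one of 3.97. Crym and Vsig8 had log2 fold changes of 3.56 and 3.36, and the call of Vsig8 was lost without mutant replicate 1 (adjusted p = 0.063). The transglutaminase gene Tgm3 and the desmosomal cadherin gene Dsc2 had log2 fold changes of -0.16 and -0.81 and did not pass.

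Of 13 measured regulators of hair shaft genes 6 were higher, 1 was lower and 6 were not called, with a median log2 fold change of 1.31. Without mutant replicate 1 or without mutant replicate 2, 3 were higher. Hoxc13, a homeobox factor that in mice is needed for hair shaft formation and for expression of several hair keratin and Krtap genes, read 2.48 and 12.9 in controls and 150 and 169 in mutants. Its log2 fold change was 3.53 (SE 0.36, adjusted p = 0.011), and its call was lost when either mutant array was left out (adjusted p 0.094 and 0.11). The homeobox genes Msx2 and Msx1 had log2 fold changes of 3.97 and 3.49 and adjusted p of 0.00062 and 0.0010. Gata3, a factor of the inner root sheath lineage, fell from 163 and 228 to 28.7 and 22.3, a log2 fold change of -2.60 (adjusted p = 0.0065), a call that was lost when control replicate 2 (adjusted p 0.067) or mutant replicate 2 (0.051) was left out. Lef1, the TCF/LEF factor of the hair matrix, read 234 and 367 in controls and 251 and 297 in mutants, with overlapping groups and a log2 fold change of -0.10 (adjusted p = 0.89).

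The authors' deposited table of changed probe sets, made with a different summary of the arrays, holds 6 of the 43 Krtap probe sets among its 170 rows used here, and each has a fold above 1. In the authors' deposited table Krtap8-1 has the largest fold of all rows, 3768, followed among the Krtap genes by Krtap13-1 with 1262 and Krtap22-2 with 834.4. Krtap17-1, Krtap3-1 and Krtap15 have folds of 261.2, 194.1 and 181.9 in the authors' deposited table. All 6 were also called here, and the 17 other called Krtap probe sets are not among those rows.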

How the data were processed

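Total RNA of whole E14.5 skin was measured on 4 arrays, 2 control and 2 mutant, grouped by the sample titles. The deposited intensity values come from GCOS and MAS5, per the submitters' processing notes, which name no version. Scaling target and detection calls are not given in the sources used here, and no further normalization was applied. A second table holds the authors' ratio (fold) of mutant over control. Per the file headers it was made with GCRMA, called Present in at least 2 of 4 arrays, at an uncorrected p under 0.01 and a fold of at least 2. It has 4 further columns of per-sample values, which were not used. Microarray signals have no counting depth, and the number of arrays limits the precision.

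Signals were analysed as log2(signal + 7.71), the offset being the 25th percentile of all values, by a two-sided test in limma 3.58.1 under R 4.3.3 (eBayes, trend on), unfiltered, over 45037 probe sets. P-values were adjusted by Benjamini-Hochberg over all of them. Replicates are single littermate embryos. With 2 arrays a group, the smallest two-sided permutation p is 0.333. On simulated data of 45037 probe sets for this comparison, 80% of 2-fold and 100% of 4-fold changes of signal + 7.71 were recovered. Of the simulated calls 5.26% were false. The changes were added on the log2(signal + 7.71) scale. A 4-fold change of a signal near or under the offset is smaller on that scale, so these shares do not hold for dim probe sets. The simulated noise was normal, with the same spread for all probe sets of a signal level. Real probe sets with a wider spread can be missed at larger changes, as Krtap4-2 was at a log2 fold change of 2.65.

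Gene symbols came from the platform table and were checked by gene ID against the RefSeq gene table of GRCm38.p6; all 43 matched. A gene of the other lists was represented by its probe set with the highest mean signal. Composition classes were assigned by subfamily from general knowledge, because protein composition was not analysed here. The counts and medians per class depend on this assignment. The sample titles do not pair the replicates across groups, and the main fit used no pairing. The log2 difference of replicate 1 and 2 in controls correlated with that in mutants at r = 0.07 across probe sets. A correlation over all probe sets, many of them dim, cannot exclude a pairing.

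Members and gene lists were chosen with earlier results of these data known, so lists are described by counts and medians and not tested. Values on all 4 arrays were given by rule for the largest and smallest change in each subfamily, the 12 largest changes and genes whose probe sets differed in their call; of the other lists up to 4 called and up to 2 uncalled genes were named. Krtap4-2 and further list genes were named after their values were seen. Alternatives were other offsets, a signal filter, other normalizations, variance models, a replicate block and leaving out each array.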

Additional observations from a re-analysis of the deposited data

How the results depend on the processing

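Of 14 alternatives, none changed the count of 0 Krtap probe sets called lower, and all 23 called members kept their sign. The count called higher, 23, was 24 with an offset of 1, 21 with the offset at the median, 16 with an offset of 100, 22 with the signal filter, 23 after quantile or median scaling or with a robust trend and 18 without a variance trend. Scaling by poly-A spikes moved it to 38, but also moved the median log2 fold change of all probe sets to 0.88 and the count of all probe sets called higher from 557 to 25858. The spike signals themselves were higher in controls. Under it Lef1 turned from -0.10 to 1.02 on the log2 scale. The median log2 fold change of the members, 3.04, was 4.48 with an offset of 1, 1.59 with the offset at the median, 0.72 with an offset of 100, 5.42 with the filter, which keeps 23 members, and 3.59 with spike scaling. Leaving out 1 array gave 13 to 23 Krtap probe sets higher and a median of 2.34 to 3.70; over all probe sets it gave 99 to 386 higher and 29 to 180 lower. All probe sets called lower, 323, were 194 with an offset of 100, 660 with the filter, 183 with spike scaling and 58 without a trend; those called higher were 923 with the filter and 176 without a trend. The cause of these shifts was not tested. The signal filter used the mean over all arrays, and 42 members had a control mean below its cutoff. Kept members other than Krtap12-1 therefore passed it through their mutant signals. The count and median of the members with the filter follow in part from that selection and are no independent check. Of the 20 uncalled members 15 were called in at least 1 alternative, 14 of them with spike scaling alone, and the other was Krtap4-2. In a fit without 1 array, the remaining array of that group is assumed to vary as the other group does. Low control signals limit how well the size of each fold is known.

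With replicate number as a block, 24 Krtap probe sets were higher, and over all probe sets 1101 were higher and 808 lower. The added Krtap call was Krtap4-2 (adjusted p = 0.021).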

Other observations

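The word TGTGGTT, a core bound by RUNX factors, was searched on both strands of the same promoter windows after the printed sequences had been seen. It occurred in 5 of 36 Krtap promoters, or 13.9%, beside 5.27% of all promoters. The 5 genes, Krtap1-5, Krtap14, Krtap19-9b, Krtap22-2 and Krtap6-3, were all called higher, and none of the 15 promoters of uncalled genes held the word. In Krtap19-9b it directly follows the CTTTGAT word, with which it shares 1 base. These counts are small, were chosen after inspection and were not tested.

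A further 6 Krtap probe sets match several genes on the platform and stayed out of all counts. They belong to Krtap4-13, Krtap9-1, Krtap2-4, Krtap6-1 and, with 2 probe sets, to the pair Krtap3-2 and Krtap3-3.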
